A study of Homo sapiens with 48 samples.

Results

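STC1 (ENSG00000159167) and STC2 (ENSG00000113739) are the human stanniocalcins, and they made up 2 of the 14685 genes counted in the series. They were chosen by name as a pair of paralogues, with their responses in these data already known. Both were found in the count tables by matching the Ensembl identifiers to gene symbols. RNA-seq was run on HEK293T, a human embryonic kidney cell line, expressing the nuclear cap-binding protein NCBP1 fused to the Halo tag from a transfected plasmid. T-REX is a method in which a photocaged probe bound to the Halo tag releases the lipid-derived electrophile 4-hydroxynonenal (HNE) upon illumination, close to the fused protein. The study asked how modification of NCBP1 changes RNA levels over time. Cells were taken 3, 6 and 12 h later, with 4 libraries for each of 4 arms at each time and 48 libraries in all.

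The labels call the 4 arms reaction, control UV, control Pre and control DMSO, all in cells of genotype WT. The first is T-REX, and the others are referred to below as light alone (UV), probe alone (Pre) and DMSO. T-REX cells received the photocaged probe (Ht-PreHNE, dissolved in DMSO) and light. The study's T-REX method, which covers the RNA-seq plates, names the alkyne form of this probe, which releases an alkyne analogue of HNE. Elsewhere the study describes native HNE for work on signaling, so the form used here is uncertain. Probe alone cells received the probe without light, and DMSO cells received the solvent without light. The study's own description of light alone gives probe and light, the same as for T-REX, so what those cells received is uncertain here. All 4 arms carried the transfected NCBP1-Halo, so no arm is of untransfected cells. The 4 libraries of an arm and time are independent biological replicates by the study's account, and the p-values below measure the spread between them.

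Stanniocalcins are secreted glycoprotein hormones, first described in fish, where they lower blood calcium. In mammals they act mainly near the cells that secrete them. Both bind and inhibit the metalloproteinase PAPP-A, which frees insulin-like growth factors (IGF) by cutting their binding proteins. STC1 is a known target of the hypoxia-inducible factor HIF-1, and STC2 is induced through ATF4, a transcription factor of the integrated stress response, as well as by hypoxia.

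Total counts lay between 23952455 and 37099535 per library (median 29405598.5). Of 11 marker genes of HEK293T, 9 were among the genes counted, with VIM at 437 to 668 CPM (counts scaled to library size, TMM-normalized), while PAX2 and PAX8 were not among the genes analysed here. Of 9 markers of other cells only COL1A1 was counted, at 2.13 to 6.07 CPM. NCBP1, which the plasmid supplies, had mean levels from 34642 to 82943 CPM over the 12 groups. It was higher in T-REX than in light alone and DMSO at each time, with means of 75865, 61370 and 53847 CPM at 3 h, 72832, 41696 and 53742 CPM at 6 h and 57501, 40520 and 34642 CPM at 12 h. Probe alone had 64587, 82943 and 59151 CPM. The part of NCBP1 levels in the results below was not tested. All 72 pairs of replicate libraries differed by more than counting error.

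The promoter of STC2 is shown because the pathways compared below, hypoxia and the ATF4 and XBP1 stress responses, act through short DNA motifs. The 250 bases before its start, from RefSeq on GRCh38.p14 at chr5:173328415-173328664, lie on the minus strand and are written 5′ to 3′. Capitals mark GCGTG, the core of the hypoxia response element, and CCAAT, the NF-Y site, each on either strand. Of the pair, 1 gene matched the promoter table. STC1 did not.
STC2: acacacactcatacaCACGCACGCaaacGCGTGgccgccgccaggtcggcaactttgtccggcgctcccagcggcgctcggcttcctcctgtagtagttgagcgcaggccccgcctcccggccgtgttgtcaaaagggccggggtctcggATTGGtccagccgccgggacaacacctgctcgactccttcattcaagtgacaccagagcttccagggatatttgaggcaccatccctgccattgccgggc
GCGTG occurred 3 times, 1 on the written strand and 2 on the other strand, where it reads CACGC and the copies overlap by 1 base. The base nearest to the start lay 218, 227 and 231 bases before it in the 3 copies. At least 1 GCGTG was present in 32.2% of 35116 promoters of the same length. The other form of the hypoxia core, ACGTG, was not in the window (18.5% of promoters held it). CCAAT occurred 1 time, on the other strand, 96 bases before the start (32.0% of promoters). None of TTGCATCA (an ATF4 site, 0.772% of promoters), TGACGTCA (a cyclic AMP response element, 1.65%) and TGACGTGG (an XBP1 site, 0.612%) was in these letters on either strand.

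The paralogues were expressed at very different levels. STC1 had 17 to 251 counts per library (median 78.5), or 0.646 to 7.80 CPM, a 12.1-fold range. STC2 had 3653 to 6071 counts, or 135 to 183 CPM, a 1.36-fold range. Per kilobase of the union of annotated exons (4149 bases for STC1 and 6128 for STC2, GENCODE 29), the group means of STC1 lay between 0.199 and 1.65 CPM and those of STC2 between 22.7 and 28.6 CPM. On this scale STC2 exceeded STC1 by 17.3 times in light alone at 12 h and by 139 times in T-REX at 3 h, which were the extremes of the 12 groups. The lowest STC1 count, 17, has an exact 95% Poisson interval of 9.9 to 27.2, which covers counting error only.

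At 3 h STC1 was at its lowest in T-REX. The 4 T-REX libraries had 0.646, 0.762, 0.987 and 0.913 CPM, from 17 to 28 counts. Light alone had 0.899, 1.69, 1.10 and 1.496 CPM. Probe alone had 2.40, 2.07, 1.21 and 1.29 CPM, and DMSO had 2.89, 1.51, 1.46 and 2.12 CPM. Every T-REX library was below every probe alone and DMSO library, and the lowest light alone library lay within the T-REX range. The mean in T-REX was 0.827 ± 0.153 CPM (SD, n = 4), against 1.296 ± 0.363 in light alone, 1.74 ± 0.586 in probe alone and 1.99 ± 0.670 in DMSO. Set against light alone, the log2 fold change of T-REX was -0.64 (SE 0.310). It was -1.06 when set against probe alone (SE 0.301) and -1.26 for DMSO (SE 0.300). These differences belong to the comparisons in which the pair was chosen, so they are given as a description, without a test.

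At 6 h the T-REX libraries separated fully from the controls. STC1 had 0.667, 1.303, 1.64 and 0.962 CPM in T-REX. Light alone had 2.44, 3.26, 3.35 and 2.21 CPM, probe alone 5.98, 5.58, 2.17 and 3.90 CPM, and DMSO 4.57, 3.54, 2.71 and 3.69 CPM. All 4 T-REX libraries were below all 12 control libraries. The means were 1.14 ± 0.422 CPM in T-REX, 2.81 ± 0.575 in light alone, 4.41 ± 1.74 in probe alone and 3.63 ± 0.765 in DMSO (SD, n = 4). STC1 was 2.44-fold lower in T-REX than in light alone (log2 fold change -1.29, SE 0.299), 3.82-fold lower than in probe alone (-1.93, SE 0.293) and 3.14-fold lower than in DMSO (-1.65, SE 0.295). Against each of the 3 controls it had the lowest log2 fold change of the 14685 genes. Like the differences at 3 h, this rank is a description. It rests on 20 to 57 counts of STC1 in the T-REX libraries.

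At 12 h STC1 had risen in all arms, and T-REX was still the lowest. The T-REX libraries had 3.67, 1.80, 3.25 and 1.90 CPM. Light alone had 7.45, 7.80, 7.43 and 4.75 CPM, the fourth library standing away from the other 3. Probe alone had 5.31, 6.61, 5.15 and 3.98 CPM and DMSO 3.23, 6.25, 6.05 and 6.67 CPM. T-REX did not overlap with light alone or probe alone, and the first DMSO library lay within the T-REX range. The log2 fold change of T-REX from light alone was -1.36 (SE 0.242), that from probe alone -0.99 (SE 0.245) and that from DMSO -1.06 (SE 0.244). STC1 ranked first, 4th and 13th from the lowest of all genes in these comparisons, again as a description.

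STC2 moved the other way at 3 h, and only then stood apart from all controls. It had 170, 172, 170 and 167 CPM in the T-REX libraries at 3 h. Light alone had 145, 140, 135 and 137 CPM, probe alone 167, 153, 148 and 149 CPM, and DMSO 155, 145, 142 and 148 CPM. All 4 T-REX libraries were above all 12 controls, although the lowest of them (167.27 CPM) and the highest control (166.62 CPM, in probe alone) were close. The T-REX mean was 169.9 ± 2.11 CPM, against 139 ± 4.40 in light alone, 154 ± 8.53 in probe alone and 147 ± 5.53 in DMSO (SD, n = 4). STC2 was 1.22-fold higher than in light alone (log2 fold change 0.29, SE 0.0453), 1.11-fold higher than in probe alone (0.15, SE 0.0452) and 1.15-fold higher than in DMSO (0.21, SE 0.0452).

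At the later times STC2 in T-REX overlapped with the controls. At 6 h it had 156, 151, 146 and 163 CPM in T-REX, 137, 165, 157 and 147 CPM in light alone, 162, 183, 142 and 157 CPM in probe alone and 146, 146, 141 and 159.8 CPM in DMSO. At 12 h it had 160.2, 168, 162 and 152 CPM in T-REX, 157, 183, 178 and 183 CPM in light alone, 176, 175, 168 and 168 CPM in probe alone and 146, 172, 165 and 166 CPM in DMSO. The T-REX range overlapped with that of every control at both times. The log2 fold changes were 0.02, -0.06 and 0.05 at 6 h (each SE 0.0683) and -0.12, -0.10 and -0.01 at 12 h (SE 0.0562, 0.0562 and 0.0563) for light alone, probe alone and DMSO as controls, in that order.

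**Figure D1:**
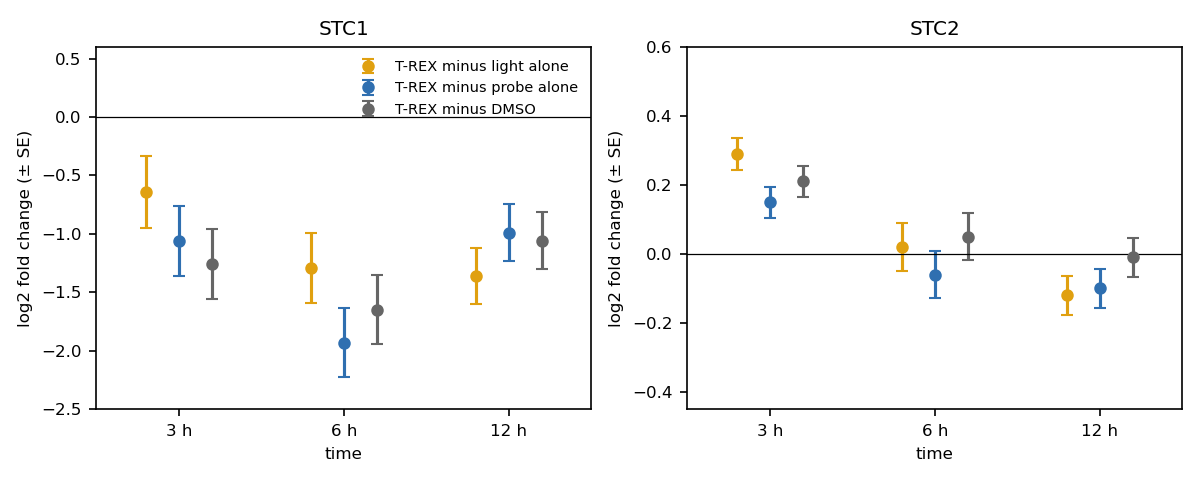
Log2 fold change ± SE of T-REX against each control at 3, 6 and 12 h for STC1 (left) and STC2 (right, narrower axis), from the edgeR fit of the 16 libraries of a time. STC1 lies between -0.64 and -1.93 in all 9 comparisons, and STC2 is above 0 against all 3 controls at 3 h and within 0.12 of 0 afterwards.

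The study counted a gene as changed when at least 2 of its 3 comparisons with controls called it, all one way. With edgeR's quasi-likelihood test and a Benjamini-Hochberg adjusted p of at most 0.05, this rule took 0.177% of genes as higher and 0.769% as lower at 3 h, 0.0545% and 0.0817% at 6 h, and 0.49% and 0.912% at 12 h. STC1 met it as lower at 6 and 12 h and STC2 as higher at 3 h. Nothing is read from these calls, since they belong to the choice of the pair. STC1 at 6 h no longer met the rule without T-REX replicate 1, T-REX replicate 2 or DMSO replicate 1, nor STC2 at 3 h without light alone replicate 3.

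The control arms were then compared with each other. No T-REX library enters these differences directly. All 16 libraries of a time were fitted together, however, so the T-REX libraries share in the normalization, the SE and the p-values. Neither gene was called in any of the 9 comparisons by edgeR's quasi-likelihood test. The share of all genes called in light alone against DMSO was 0.00681% at both 3 and 6 h and became 0.0136% at 12 h. For probe alone against DMSO it was 0.00681%, 0.0272% and 5.11%, and for light alone against probe alone 0.232%, 0.0613% and 0.415%. STC2 at 3 h was lower in light alone than in probe alone by -0.13 (log2, SE 0.0452), with an unadjusted p of 0.00874 that became 0.208 after Benjamini-Hochberg adjustment in the edgeR fit. For STC1 the smallest unadjusted p was 0.0247, in light alone against probe alone at 6 h (log2 fold change -0.65, SE 0.269, adjusted p = 0.509 in edgeR). The approximate 95% interval of that difference was -1.18 to -0.12, so these libraries leave room for a difference between controls of over 1 log2 unit in STC1. STC1 in light alone differed from DMSO by -0.61 at 3 h (interval -1.17 to -0.06), -0.36 at 6 h (-0.90 to 0.17) and 0.30 at 12 h (-0.15 to 0.76) on the log2 scale.

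STC1 rose steeply with time in control cells, and STC2 rose a little. Over the mean of the 3 control arms, fitted on 36 control libraries, STC1 was 2.15-fold higher at 6 h than at 3 h (log2 fold change 1.10, SE 0.166, edgeR adjusted p = 1.31e-06). It was 3.53-fold higher at 12 h than at 3 h (1.82, SE 0.162, edgeR adjusted p = 4.18e-12) and 1.64-fold higher at 12 h than at 6 h (0.72, SE 0.151, edgeR adjusted p = 3e-04). STC1 ranked 4th from the highest of all genes in the change from 3 to 12 h and 7th in that from 3 to 6 h. STC2 was 1.15-fold higher at 12 h than at 3 h (0.21, SE 0.0365, edgeR adjusted p = 5.57e-06) and 1.10-fold higher at 12 h than at 6 h (0.14, edgeR adjusted p = 0.0022). From 3 to 6 h STC2 was not called (0.06, SE 0.0365, interval -0.01 to 0.14, edgeR adjusted p = 0.155). A call with time was common: 41.5% of genes were called from 3 to 6 h, 61.2% from 3 to 12 h and 34.8% from 6 to 12 h. The labels do not say whether the 3 times were prepared or sequenced together, so time and any such batch cannot be told apart. The same control libraries enter the T-REX differences above.

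Every control arm showed the rise of STC1 from 3 to 12 h, by 2.40 in light alone (log2, SE 0.289), 1.59 in probe alone (SE 0.279) and 1.47 in DMSO (SE 0.276). For STC2 the change was 0.33, 0.16 and 0.13 (SE 0.0633, 0.0631 and 0.0632). Both genes had their largest change in light alone. The difference in this change between light alone and DMSO was 0.93 for STC1 (SE 0.399, unadjusted p = 0.026) and 0.19 for STC2 (SE 0.0894, unadjusted p = 0.0369) in edgeR's test across all genes. Neither was called after Benjamini-Hochberg adjustment (edgeR adjusted p = 0.997 for both). In that test edgeR called 0% of genes, with 631 at an unadjusted p under 0.05 and 2 called by DESeq2. For probe alone against DMSO the differences were 0.11 and 0.02, with 0% called, 1195 genes at an unadjusted p under 0.05 and 4 called by DESeq2.

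Ordered by mean level, STC1 ran from T-REX at 3 h (0.827 CPM), T-REX at 6 h (1.14 CPM) and light alone at 3 h (1.296 CPM) up to probe alone (5.26 CPM), DMSO (5.55 CPM) and light alone (6.86 CPM) at 12 h. T-REX at 12 h, at 2.66 ± 0.945 CPM, stood between DMSO at 3 h and light alone at 6 h. STC2 ran from light alone at 3 h (139 CPM) to light alone at 12 h (175 CPM), and T-REX at 3 h (169.9 CPM) came just below the 12 h levels of probe alone and light alone. Between neighbours in either order the libraries overlapped. The spread of STC1 within a group was between 18.5% and 39.5% of its mean, where counting error alone gives 6.83% to 21.2%. For STC2 the spread was 1.24% to 10.7%, against 1.36% to 1.58% from counting. The smallest, in T-REX at 3 h, was below the 1.48% that counting alone gives in that group, so those 4 libraries understate the spread between replicates.

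Since STC1 changed more than STC2, the balance of the paralogues within a library shifted. At 3 h the geometric mean ratio of STC2 to STC1 counts was 208 in T-REX, 111 in light alone, 92.2 in probe alone and 77.0 in DMSO. At 12 h it was 63.5, 26.0, 33.2 and 30.3. The ratio fell with time in each control arm. From 3 to 12 h the log2 ratio changed by -2.09 in light alone (SE 0.293), -1.47 in probe alone (SE 0.253) and -1.34 in DMSO (SE 0.283), and from 3 to 6 h by -1.02, -1.24 and -0.89. In all 6 tests the 4 later libraries lay below the 4 earlier ones, with a two-sided exact permutation p of 0.0286 (0.0286 after Benjamini-Hochberg adjustment over the 6), the smallest that 4 against 4 libraries can give. No p is given for T-REX, whose ratio rests on the differences that chose the pair.

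Genes of the pathways that act on the stanniocalcins were examined next, from lists that do not hold STC1 or STC2. The lists were chosen with earlier results of these data known, so the adjusted p-values of their genes in T-REX are a description. The study names some of these genes, such as EGLN3 and IGFBP5, among its top-ranked changed genes. Counts follow the rule of at least 2 of 3 controls, read against the percentages of all genes given for that rule. Of 35 hypoxia targets, 6 were lower in T-REX at 3 h, 1 at 6 h and 16 at 12 h, and 0 were higher at any time. At 12 h the median log2 fold change of the list was -0.421 with light alone as the control, -0.352 with probe alone and -0.387 with DMSO, where the median of all genes was at most 0.00313. STC1, at -0.99 to -1.36, was further from 0 than BNIP3, a mitophagy receptor (-0.81, -0.89 and -0.78), and LDHA, lactate dehydrogenase A (-0.69, -0.63 and -0.72). Both passed against all 3 controls, with edgeR adjusted p of at most 7.79e-05 for BNIP3 and 0.000545 for LDHA. KDM3A, a histone demethylase, was lower at 3 h (-0.20, -0.27 and -0.38), at 6 h (-0.27, -0.43 and -0.32) and at 12 h. BNIP3L, a relative of BNIP3, was lower at 3 h (-0.26, -0.27 and -0.32). The HIF subunits HIF1A, EPAS1 and ARNT were not called by the rule at any time. The count at 3 h lay between 0 and 7 when any 1 of the 16 libraries was left out, and that at 12 h between 13 and 20. DESeq2 gave 9, 6 and 21 hypoxia targets at 3, 6 and 12 h, and 9, 12 and 21 passed with the covariates for unwanted variation (RUV).

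Of 31 ATF4 targets, 2 were higher at 3 h, 2 at 6 h and 11 at 12 h, and 0 were lower. ASNS, asparagine synthetase, was higher at 3 h by 0.73, 0.74 and 0.82 (log2), the controls being taken in the order above. SLC1A4, a neutral amino acid transporter, was called with it (0.27, 0.27 and 0.38). SLC7A11, the cystine transporter, was higher by 0.69, 0.73 and 0.80 at 6 h, beside SLC1A4 (0.54, 0.35 and 0.45). At 12 h SLC7A11 (0.77, 0.73 and 0.90) and PCK2, the mitochondrial phosphoenolpyruvate carboxykinase (0.54, 0.59 and 0.82), came first when genes were ranked by the smallest of their 3 differences. The median of the list at 12 h was 0.335, 0.224 and 0.33. STC2 at that time had -0.12, -0.10 and -0.01. DDIT3, on the same list, was not called by the rule at any time. It had -0.02, 0.21 and 0 at 3 h, 0.10, 0.07 and -0.33 at 6 h, and 0.03, 0.02 and -0.02 at 12 h. DESeq2 gave 11, 6 and 16 ATF4 targets at 3, 6 and 12 h. RUV covariates, 2 factors of unwanted variation per library, gave 14, 18 and 23. When any 1 of the 16 libraries was left out the count was 1 to 4 at 3 h, 2 to 6 at 6 h and 6 to 18 at 12 h.

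The unfolded protein response list had 21 targets, and 2 of them were higher at 3 h, 1 at 6 h and 2 at 12 h. They were HERPUD1, which acts in degradation of endoplasmic reticulum proteins (0.16, 0.41 and 0.50 at 3 h), SEC24D, a COPII coat subunit (0.34, 0.10 and 0.32 at 3 h, 0.43, 0.35 and 0.55 at 6 h and 0.29, 0.09 and 0.27 at 12 h), and HSPA5, the chaperone BiP (0.21, 0.04 and 0.18 at 12 h). Of 14 regulators, XBP1, a transcription factor of this response, was higher at 3, 6 and 12 h (0.41, 0.30 and 0.34 at 3 h). CREB3L2, another transcription factor, was higher at the same times (0.42, 0.12 and 0.33 at 3 h), and ATF4 itself at 12 h (0.23, 0.22 and 0.28). With RUV covariates, the unfolded protein response counts were 9, 4 and 5 and the regulator counts 4, 5 and 5 at 3, 6 and 12 h. No unfolded protein response target was called lower at any time. The median of that list was 0.153, 0.0156 and 0.168 at 3 h and 0.0906, 0.0636 and 0.102 at 6 h. At 12 h it was 0.0629, -0.0064 and 0.0327, with 4 genes below 0 against all controls and 5 above 0.

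Of the IGF and PAPP-A axis, on which the stanniocalcin proteins act, 5 of 13 listed genes were counted. IGFBP5, an IGF-binding protein, was lower in T-REX at 12 h (-0.52, -0.40 and -0.51, edgeR adjusted p = 0.000648, 0.0138 and 0.000263), and no other member passed at any time. PAPPA and IGFBP4 were not among the genes analysed here, and a link between the stanniocalcins and IGFBP5 RNA was not tested. Of 10 genes of calcium and phosphate handling, 0 passed the rule at 3, 6 or 12 h by edgeR. DESeq2 gave 2 at 3 h and 1 at 12 h.

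**Figure D2:**
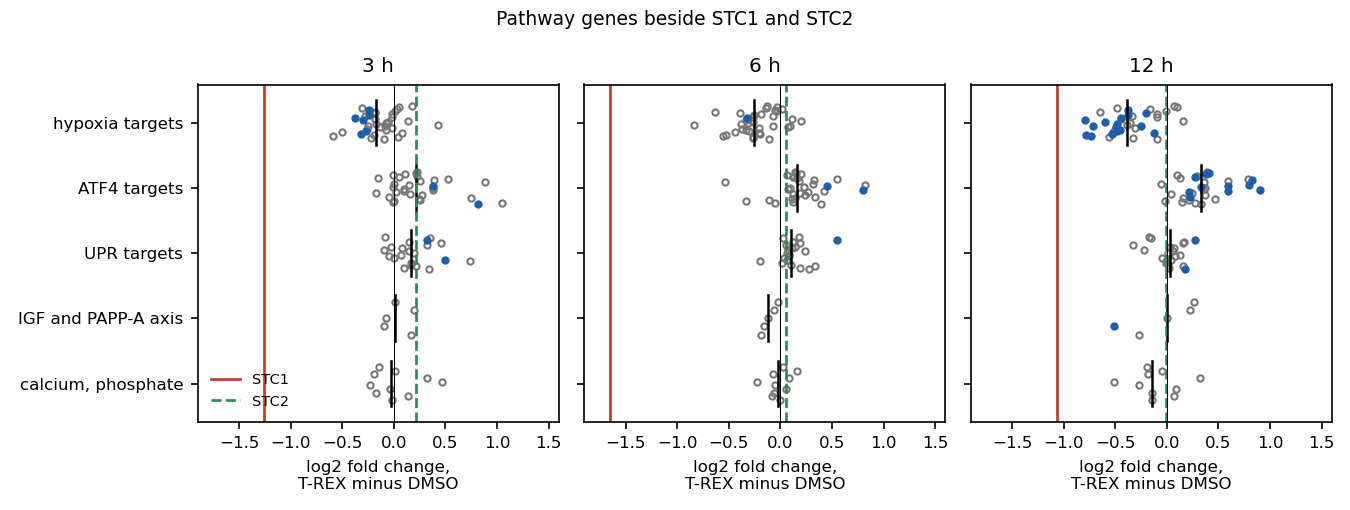
Log2 fold change of T-REX against DMSO for the genes of 5 pathway lists at 3, 6 and 12 h. Each circle is a gene, filled where the gene was called against at least 2 of 3 controls, short vertical bars are list medians, and the vertical lines mark STC1 (solid) and STC2 (dashed). STC1 lies to the left of every listed gene at each time, and at 12 h the hypoxia targets sit mostly left of 0 and most ATF4 targets right of it.

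With time in the control arms the lists moved in their own ways. From 3 to 12 h, 27 of 35 hypoxia targets were higher and 4 lower, with a median of 0.465 (log2). Of the ATF4 targets 2 were higher and 17 lower (median -0.149), and of the unfolded protein response targets 0 were higher and 19 lower (median -0.315). The median of all genes was 0.00088, and 61.2% of genes were called in either direction. Of the 14685 genes, 4569 were called higher and 4419 lower. STC1 rose with the larger group of hypoxia targets and by more than their median. STC2, at 0.21, rose while most called ATF4 targets fell.

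The genes whose pattern was most like each stanniocalcin were found by Pearson's r among 13833 genes. Over the 12 means of arm and time, which include the T-REX groups that chose the pair, the genes most like STC1 were KDM3A (r = 0.971), EGLN3 (0.960), MXI1 (0.960), PDK1-AS1 (0.958) and CXCR4 (0.951). KDM3A, EGLN3, an oxygen-sensing prolyl hydroxylase, and MXI1, a repressor of the MAX network, belong to the hypoxia list. CXCR4 encodes a chemokine receptor. Whether the counting used strand is not stated, so reads of PDK1-AS1 cannot be told apart from those of its sense partner PDK1. From 3 to 12 h in controls CXCR4 rose by 1.03 (SE 0.088), MXI1 by 0.65, EGLN3 by 0.71 and KDM3A by 0.43 on the log2 scale. At 12 h T-REX differed from DMSO by -1.10 in CXCR4, -0.74 in EGLN3, -0.38 in MXI1 and -0.44 in KDM3A, where STC1 had -1.06. Of these genes STC1 had the largest change with time.

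For STC2 the highest values over the 12 means were lower, with NSMCE1 (r = 0.896), LAYN (0.891), ATXN7L1 (0.887), MIOS-DT (0.881) and ENSG00000249413 (0.879). None of these 5 was on the hypoxia or ATF4 list. None met the rule against T-REX controls at any time. From 3 to 12 h in controls they rose by 0.25, 0.38, 0.18, 0.61 and 0.51 (log2).

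Variation among replicate libraries gave another view. After the mean of each arm and time was subtracted from all 48 libraries, the genes closest to STC1 were TMEM45A (r = 0.711), BNIP3 (0.692), KLF7 (0.626), SMAGP (0.625) and SPRY1 (0.615). For STC2 they were HK2, a hexokinase (r = 0.743), PDK1, pyruvate dehydrogenase kinase 1 (0.664), BHLHE40, a transcriptional repressor (0.628), R3HDM2 (0.563) and VEGFA, the vascular growth factor (0.560). The hypoxia list held 1 of the 5 for STC1 and 4 of the 5 for STC2. Over the 34 hypoxia targets compared, the median r was 0.366 with STC1 and 0.347 with STC2, where it was -0.00408 and 0.011 over all genes. Over 30 ATF4 targets it was -0.00667 and 0.0706. STC1 and STC2 correlated with each other at r = 0.418 over the 48 libraries, and at 0.549, 0.453 and 0.312 within the 16 libraries of 3, 6 and 12 h. These values are descriptive. The genes of a library share its culture, RNA and depth, and STC1 has few counts.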

How the data were processed

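Per the study's methods, HEK293T cells were transfected with NCBP1-Halo, and stranded RNA-seq libraries were made after removal of ribosomal RNA. For the RNA-seq the study's Reporting Summary lists cutadapt, TopHat and Cufflinks. The tool that made the gene counts and the genome build are not given in the sources used here. The authors deposited raw counts per gene, 1 table per time, and these were tested. The authors also deposited log2 CPM, used here in an alternative only, and for each library a score on 2 factors of unwanted variation (RUV), used as covariates in another. Exon lengths came from GENCODE 29 and the promoter from RefSeq. Gene symbols came from a separate list of gene names by Ensembl identifier (13443 of 14685 identifiers have a symbol).

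The 16 libraries of a time were fitted together in edgeR 4.0.16 (TMM, filterByExpr, robust quasi-likelihood test) under R 4.3.3, and the 36 control libraries in 1 fit for changes with time. p-values were adjusted by Benjamini-Hochberg over all genes within a comparison, with a threshold of 0.05. Intervals are the estimate with a normal approximation from its SE. Printed CPM are TMM-normalized over 48 libraries. Ratios were tested in SciPy 1.17.1. Likeness used log2 CPM with 2 counts added before the log, for genes with a mean above 1. The code was tested on simulated data. Alternatives were DESeq2 1.42.0, RLE factors, no low-count filter, a replicate block, RUV covariates, fits of 2 arms, limma 3.58.1 and leaving out each library. STC1 and STC2, the gene lists and the tests were chosen with earlier results of these data known. Named list genes are up to 2 per direction, list and time, ranked among those called by the smallest in size of the 3 log2 fold changes.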

Additional observations from a re-analysis of the deposited data

Results flagged for a closer look

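In light alone at 12 h, STC1 of replicate 4 stood apart at 4.75 CPM, below the 7.45, 7.80 and 7.43 CPM of the other 3 libraries. The gap to its neighbour was 0.879 of the range of the group, above Dixon's 95% critical value for 4 samples. It was the 1 such case in 24 groups of 4 libraries examined, and chance gives about 1 in 20. Without it, the log2 fold change of STC1 in T-REX against light alone at 12 h was -1.50, and the rise of STC1 in light alone from 3 to 12 h was 2.54.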

How the results depend on the processing

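Of the 64 values of STC1 and STC2, 28 had a test. These 28 kept their direction under DESeq2, under RLE factors, without the filter for low counts, with a replicate block and with RUV covariates. So did the 18 of them refitted with limma on log2 CPM and the 18 from fits of the 2 arms alone. The other values moved by less than the SD between replicates where they were refitted, and their direction was not checked. These, the differences of T-REX and the changes with time within 1 arm, had no test. Of the 28 values with one, all stayed on their side of the threshold with RLE factors, without the filter and with the block, as did the 25 to which DESeq2 gave an adjusted p and the 18 refitted with limma or in 2 arms. With RUV covariates STC2 in light alone against probe alone at 3 h passed (-0.13, edgeR adjusted p = 0.023). The rise of STC1 over the controls from 3 to 12 h was 1.83 with the replicate block. The numbers were not taken to pair libraries. Same-numbered libraries of 2 arms deviated together (r above 0.1) in 12, 11 and 8 of 24 pairs at 3, 6 and 12 h. Differently numbered libraries did so in 27, 18 and 19 of 72 pairs, a smaller share at each time. The median r was 0.0679, -0.00798 and 0.00177 for same numbers and -0.0133, -0.0172 and 0.0036 for different ones. For values with no test, turns of sign were not counted. With 1 library left out, the range crossed 0 for STC2 in T-REX against light alone at 6 h (-0.03 to 0.06). It also crossed 0 for STC2 in T-REX against DMSO at 12 h (-0.06 to 0.01) and in DMSO cells from 3 to 6 h (-0.04 to 0.03). Among the values with a test, leaving out 1 library turned the sign in 11 fits, in values that were never called. These were STC1 in probe alone against DMSO at 3 h (-0.39 to 0.04) and 12 h (-0.26 to 0.04) and its 12 h minus 3 h difference (-0.12 to 0.31), and STC2 in light alone against DMSO at 6 h (-0.01 to 0.08), light alone against probe alone at 12 h (0.00 to 0.07) and the difference with time in probe alone against DMSO (-0.03 to 0.06).

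Counts of list genes in T-REX moved more. With DESeq2 they were 11, 6 and 16 for ATF4 targets and 9, 6 and 21 for hypoxia targets at 3, 6 and 12 h. They were 5 for the unfolded protein response at 3 h, and 2 and 1 for calcium and phosphate handling at 3 and 12 h. RLE factors gave 1 ATF4 target at 3 h. The replicate block gave 5 and 4 ATF4 targets at 3 and 6 h and 2 hypoxia targets at 6 h. RUV covariates gave 14, 18 and 23 ATF4 targets, 9, 12 and 21 hypoxia targets, 9, 4 and 5 of the unfolded protein response and 4, 5 and 5 regulators at 3, 6 and 12 h. They also gave 1 and 3 IGF genes at 3 and 12 h and 3 calcium and phosphate genes at each of 3 and 12 h. Leaving out 1 library gave 0 to 7 hypoxia targets at 3 h and 0 to 3 at 6 h, 1 to 4, 2 to 6 and 6 to 18 ATF4 targets, 1 to 3 unfolded protein response genes at 3 h and 0 to 2 at 12 h, 1 to 2 regulators at 6 h and 1 to 4 at 12 h, 1 to 2 IGF genes at 12 h, and 0 to 1 calcium and phosphate genes at 3 and 12 h. The causes were not tested. By the rule of 2 of 3 controls, STC2 at 3 h was not called in fits of the 2 arms alone, and STC1 at 3 h was called lower with RUV covariates. Depth limits STC1, at a median of 78.5 counts, more than STC2.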
